A study of Mus musculus with 6 samples.

Results

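The genes described here are 10 genes that sense double-stranded RNA in mouse cells or pass its signal on. They were followed in progenitor cells of the retina in an experiment with a short interfering RNA (siRNA). They were taken by symbol from the expression table of the study, and earlier results of these data were known when they were chosen. All 10 were found among its 55401 gene identifiers and among the 13588 genes tested. The cells were mNRPCs, adult mouse neural retinal progenitor cells grown in culture. In 3 samples named Ifitm the cells received an siRNA against Ifitm3, an interferon-induced membrane protein that hinders viruses from entering cells. The 3 samples named Control are read here as having received a control siRNA. Transfection was with a lipid reagent of the Lipofectamine brand, and RNA was collected after about 48 h. On this reading double-stranded RNA and lipid were delivered in both groups, and no sample without transfection was analysed here. The paper's methods for the sequencing name only mNRPCs and IFITM3-knockdown cells, and the study also had a blank control. The labels do not say whether the 3 libraries of a group came from separate cultures, so a p-value here reflects no more than library-to-library spread, part or all of which may be technical.

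Double-stranded RNA is a sign of virus infection to a mammalian cell. In the cytosol the helicases RIG-I (gene Ddx58) and MDA5 (Ifih1) bind it and pass the signal to MAVS on mitochondria, while in endosomes it is bound by the receptor TLR3, and both routes lead to the kinases TBK1 and IKK-epsilon, which activate IRF3 and with it the interferon-beta gene. Secreted interferon then raises many genes, among them several of the sensors themselves, and synthetic siRNAs can be ligands of these sensors, mostly depending on their length, ends and sequence.

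The siRNA strands are shown because, on that reading, they are the double-stranded RNA that differed between the groups. Both are duplexes of 19 paired bases with a dTdT overhang, and the capitals mark bases 2 to 8 of the antisense strand, the seed by which an siRNA can pair with other transcripts. The scramble siRNA listed by the study is taken as the control siRNA.
Ifitm3 siRNA, sense: gaacuacugugaucaacau
Ifitm3 siRNA, antisense: aUGUUGAUcacaguaguuc
scramble siRNA, sense: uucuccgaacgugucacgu
scramble siRNA, antisense: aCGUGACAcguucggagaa
The duplexes differed in base composition, with 36.8% G and C in the Ifitm3 siRNA and 52.6% in the scramble siRNA. Neither had a near match over its full length in the 10 genes, and matches of the seed alone were not examined here. Over all their annotated transcripts, the best site differed from the antisense strand at 6 to 8 of 19 positions for the Ifitm3 siRNA and at 5 to 8 for the scramble siRNA, whereas the Ifitm3 siRNA matched Ifitm3 with 0 mismatches.

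Ifitm3 itself was at 432 ± 102 FPKM in the Ifitm3 siRNA libraries, against 2584 ± 505 FPKM in the control siRNA libraries (SD, n = 3 each), which is 16.7% of the control mean. FPKM are fragments per kilobase of transcript, scaled by a library's mapped fragments, so that levels can be set side by side between genes. Every Ifitm3 siRNA library lay below every control siRNA library, the log2 fold change was -2.59 with a standard error of 0.23, and the adjusted p was 0.1001 (limma on log2(FPKM + 0.1), Benjamini-Hochberg over all genes tested). The FPKM of a library summed to between 344706 and 360247 and 11966 to 12274 genes reached 1 FPKM. The number of reads is unknown, so no counting error can be given. Of 12 progenitor markers 8 reached 1 FPKM, among them Sox2, Pax6 and Six3, while Rax and Six6 were listed at 0 in all libraries. Of 12 leukocyte markers 10 stayed below 1 FPKM in every library, with Ptprc at no more than 0.01 FPKM and C1qa and C1qb at 0, while their sum was 4.40 to 12.9 FPKM in the Ifitm3 siRNA libraries and 2.59 to 3.24 FPKM in the control siRNA libraries. Cd68, a lysosomal protein of macrophages that other cells also make, was at 12.78, 3.36 and 9.35 FPKM in the Ifitm3 siRNA libraries, against 1.94, 1.49 and 2.68 FPKM in the control siRNA libraries, and made up most of the sum in the Ifitm3 siRNA libraries. Tmem119, the other marker that reached 1 FPKM, was at 0.12, 0.76 and 0.35 FPKM in the Ifitm3 siRNA libraries. In the control siRNA libraries Tmem119 was at 0.59, 1.31 and 0.17 FPKM, so its groups overlapped. Whether the Cd68 values bear on the genes described here was not tested. In RNA of whole cultures, fewer cells of a type and less RNA per cell cannot be told apart.

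Transcripts of all 10 genes were detected in every library, and no difference between the groups passed the test for any of them. At an adjusted p under 0.05 from limma, 0 of the 10 genes were called, against 0.00736% of all genes tested. Ifitm3, the target of the siRNA, did not pass this threshold either (adjusted p = 0.1001 from limma), so a gene that misses it may still differ. At the thresholds of the study, read as an absolute log2 fold change over 1 and an unadjusted p under 0.05, 0 of the 10 were called, against 1.43% of all genes. At an unadjusted p under 0.05 alone, 0 of the 10 were higher, against 5.32% of all genes, and 0 were lower, against 3.37%, and the smallest p of the 10 was 0.0814. The groups were apart in every library for 2 of the 10 genes, against 15.6% of all genes. The fold changes were above 0 in 5 genes and below 0 in 5, with a median of -0.02 on the log2 scale, against 0.04 over all genes tested. Their median size without sign was 0.28, against 0.19 over all genes. For 6 of the 10 genes the 95% confidence interval lay within a 2-fold change in either direction. For Tlr3, Zbp1, Trim25 and Ikbke it did not, so that these values leave room for a change of that size in these 4 genes. With 3 libraries against 3, an exact permutation test of a single gene cannot give a p below 0.1.

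**Figure D1:**
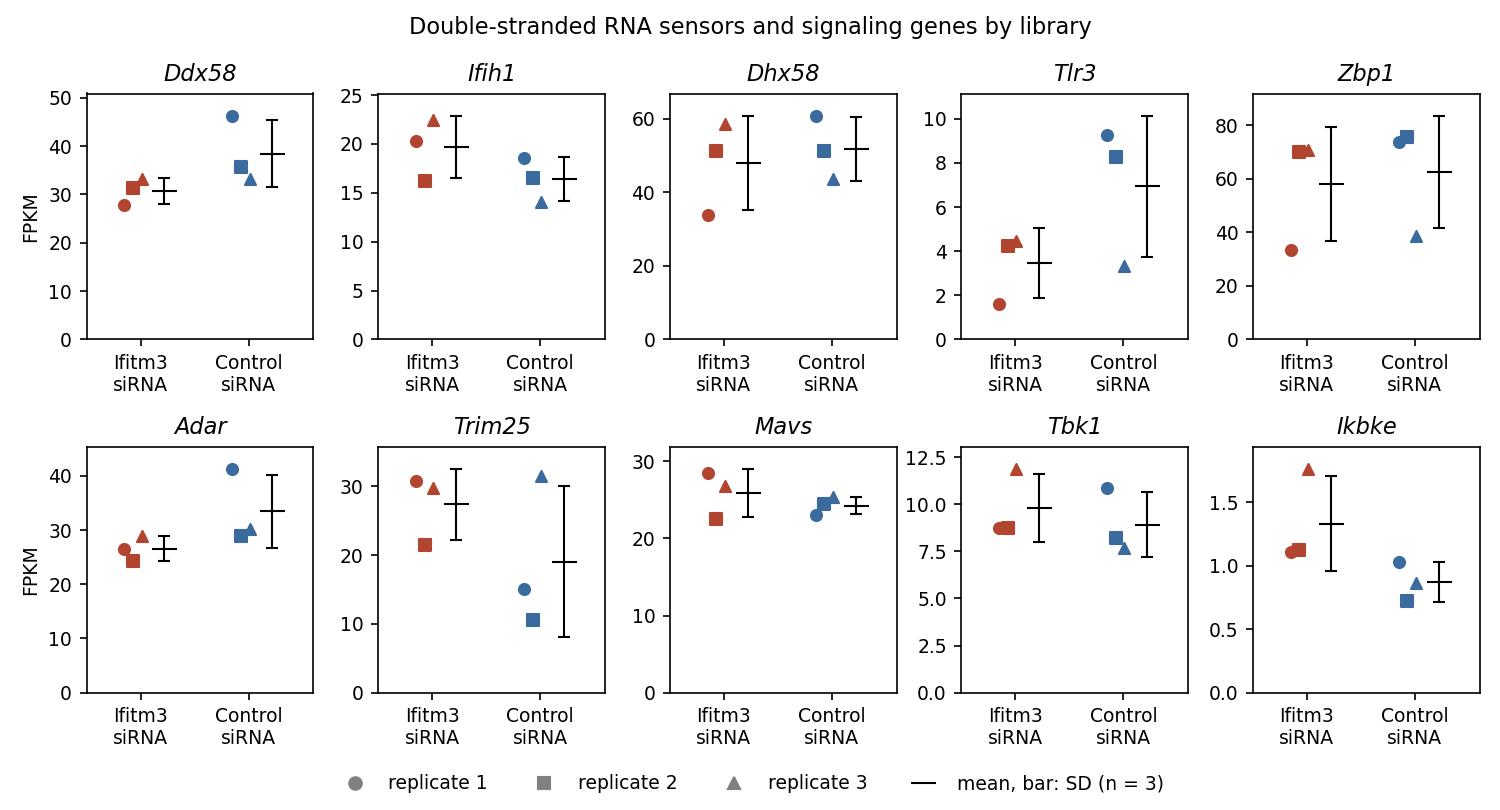
Level of each of the 10 genes in FPKM (linear axes from 0) in the Ifitm3 siRNA libraries and the control siRNA libraries, one marker per library with its replicate number, and the mean with the SD (n = 3) beside them. The groups share part of their range in 8 of the 10 genes. Zbp1 and Tlr3 have a low library in both groups, and Dhx58 has one among the Ifitm3 siRNA libraries.

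The cytosolic helicases were all well above the median gene, which had a control mean of 5.68 FPKM, and they did not move in one direction. Ddx58 (ENSMUSG00000040296), on the minus strand of chromosome 4 (GRCm38, 40203773 to 40239828), encodes RIG-I, which recognises short double-stranded RNA with phosphates at its 5′ end. It was at 27.88, 31.29 and 33.17 FPKM in the Ifitm3 siRNA libraries, against 46.24, 35.69 and 33.18 FPKM in the control siRNA libraries. All Ifitm3 siRNA libraries lay below all control siRNA libraries, but the closest pair was apart by no more than the last decimal of the table. The means were 30.8 ± 2.68 FPKM after Ifitm3 siRNA and 38.4 ± 6.93 FPKM after control siRNA (SD, n = 3 each), and the log2 fold change was -0.31 (95% confidence interval -0.69 to 0.08, adjusted p = 0.618 from limma). The exact permutation test gave p = 0.1, the smallest it can give.

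Ifih1 (ENSMUSG00000026896), on chromosome 2 from 62595798 to 62646255 on the minus strand, encodes MDA5, which forms filaments on long double-stranded RNA. It was at 20.34, 16.19 and 22.49 FPKM in the Ifitm3 siRNA libraries, against 18.60, 16.50 and 14.11 FPKM in the control siRNA libraries. The groups overlapped, since the second Ifitm3 siRNA library lay below 2 control siRNA libraries. Its log2 fold change was 0.26 (95% confidence interval -0.15 to 0.67, adjusted p = 0.694 from limma). The ratio of Ddx58 to Ifih1, chosen after the values had been seen and therefore not tested, was 1.37, 1.93 and 1.48 in the Ifitm3 siRNA libraries and 2.49, 2.16 and 2.35 in the control siRNA libraries. In these cells the RIG-I transcript thus exceeded the MDA5 transcript in every library, by a smaller factor in each Ifitm3 siRNA library than in any control siRNA library. Of the 45 ratios that 10 genes allow, 11 did not overlap between the groups. These ratios share genes, and the share over all pairs of genes was not computed, so the count is no result about the 10 genes.

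Dhx58 (ENSMUSG00000017830), on chromosome 11 from 100694884 to 100704271 on the minus strand, encodes LGP2, a helicase without the signaling domains of the other 2 that tunes their activity. It was at 33.83, 51.35 and 58.56 FPKM in the Ifitm3 siRNA libraries, against 60.78, 51.12 and 43.56 FPKM in the control siRNA libraries. The lowest and the second highest of these 6 values both came from Ifitm3 siRNA libraries, and the groups overlapped. On the log2 scale the fold change was -0.14 (95% confidence interval -0.70 to 0.42, adjusted p = 0.882 from limma), and it was 0.09 without Ifitm3 siRNA replicate 1. The annotated gene Dhx58os lies on the other strand of this locus, and the sources used here do not say whether reads were counted by strand.

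The promoters of the sensors are shown where they hold a pattern of the interferon-stimulated response element, the site of the interferon-activated factors. The letters GAAANNGAAA were searched on both strands of the RefSeq promoters (GRCm38.p6, 250 bases before to 50 after the start of a gene), and 3.44% of all 32851 windows held them. Of the 10 genes 8 were in this table, Zbp1 and Dhx58 not, and 2 of these 8 held a match, which the capitals mark within its surroundings. Both genes are cytosolic sensors, and both matches lay just after the start, as did both of Ifitm3. The Ifih1 match is read on the strand of the gene and the Ddx58 match is the reverse complement.
Ifih1, chr2:62646206-62646233, minus strand, match from base 33 after the start: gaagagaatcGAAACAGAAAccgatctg
Ddx58, chr4:40239804-40239833, minus strand, match from base 3: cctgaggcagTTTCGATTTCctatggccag
Ifitm3, chr7:141010723-141010752, minus strand, match from base 3: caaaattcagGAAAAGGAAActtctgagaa
Ifitm3, chr7:141010706-141010735, minus strand, match from base 20: aaacttctgaGAAACCGAAActgccgcaga
A match is a description of these letters, and no binding was measured. Of the 2 sensors that held one, Ddx58 had a log2 fold change below 0 and Ifih1 one above 0.

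Tlr3 had the lowest mean after Ifitm3 siRNA relative to control siRNA of the 10 genes, with a wide spread between libraries. Tlr3 (ENSMUSG00000031639), on chromosome 8 from 45395665 to 45411080 on the minus strand, encodes the endosomal receptor for double-stranded RNA. It was at 1.62, 4.25 and 4.48 FPKM in the Ifitm3 siRNA libraries, against 9.26, 8.27 and 3.31 FPKM in the control siRNA libraries. The first 2 control siRNA libraries lay above all others, but the third lay between the Ifitm3 siRNA libraries. The means were 3.45 ± 1.59 FPKM after Ifitm3 siRNA and 6.95 ± 3.19 FPKM after control siRNA (SD, n = 3 each), so that the first was 49.7% of the second. The log2 fold change was -0.99 (standard error 0.51, 95% confidence interval -2.22 to 0.24, adjusted p = 0.618 from limma). Without control siRNA replicate 3 it was -1.45 and passed an unadjusted p of 0.05, with an adjusted p of 0.812 from limma, and no adjusted p of Tlr3 over 15 alternative settings was under 0.502. The predicted gene Gm45542 lies on the other strand of this locus.

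Zbp1 had the highest mean of the 10 transcripts in both groups, and its mean hardly differed between them. Dhx58 lay above Zbp1 in Ifitm3 siRNA replicate 1 (33.83 against 33.43 FPKM) and in control siRNA replicate 3 (43.56 against 38.53 FPKM). Zbp1 (ENSMUSG00000027514), on chromosome 2 from 173206612 to 173218923 on the minus strand, encodes a sensor of left-handed (Z-form) nucleic acid that can trigger necroptosis, a lytic form of cell death. It was at 33.43, 70.11 and 70.58 FPKM in the Ifitm3 siRNA libraries, against 73.78, 75.52 and 38.53 FPKM in the control siRNA libraries. In each group 2 libraries lay near each other and 1 was much lower, and the groups overlapped. Its mean log2 fold change was -0.13 (95% confidence interval -1.04 to 0.79, adjusted p = 0.941 from limma), and its sign changed with the library left out, as it was 0.23 without Ifitm3 siRNA replicate 1. By its control mean of 62.6 FPKM Zbp1 was among the top 5.81% of the genes tested.

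Adar (ENSMUSG00000027951), on chromosome 3 from 89715022 to 89753446 on the plus strand, encodes the enzyme ADAR1, which edits adenosine to inosine in double-stranded RNA and so keeps the cell's own RNA from being sensed. It was at 26.43, 24.33 and 28.97 FPKM in the Ifitm3 siRNA libraries, against 41.27, 28.86 and 30.26 FPKM in the control siRNA libraries. The first control siRNA library stood above all others, and the groups overlapped in a single pair of libraries. On the log2 scale its fold change was -0.32 (95% confidence interval -0.72 to 0.09, adjusted p = 0.623 from limma). Adar has an interferon-inducible long isoform and a shorter constant one, which values per gene do not separate, and it overlaps Chrnb2 on the other strand.

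**Figure D2:**
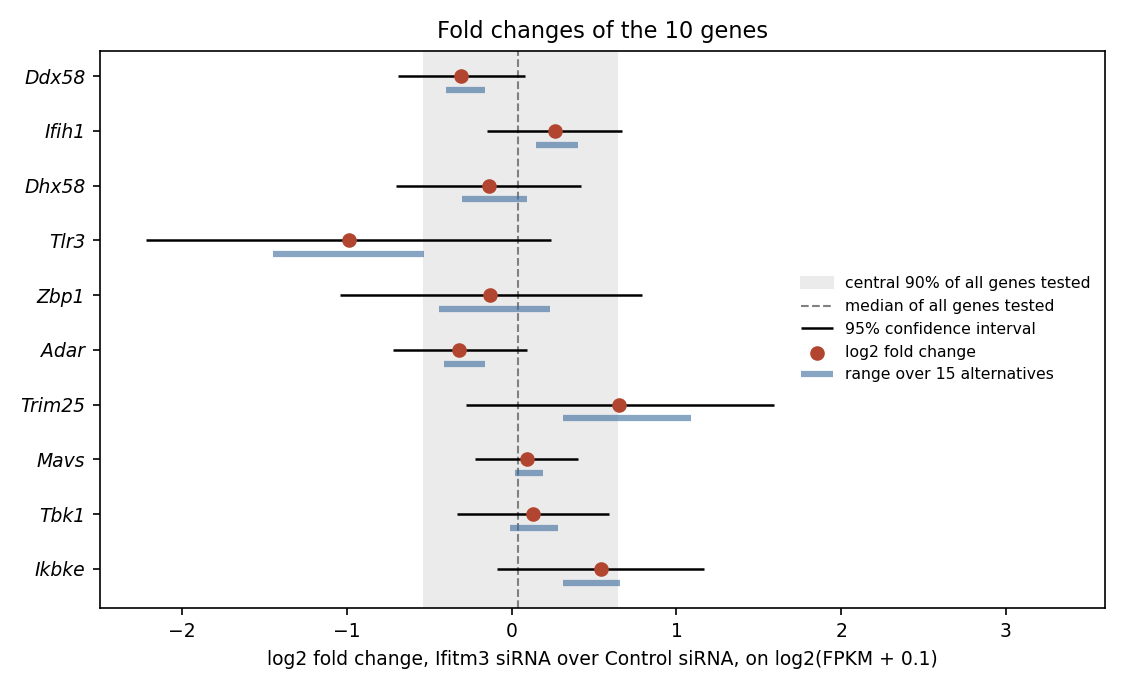
Log2 fold change of each gene, Ifitm3 siRNA over control siRNA on the log2(FPKM + 0.1) scale, as a red point with its 95% confidence interval (black) and the range over 15 alternative settings (blue), over the central 90% of all genes tested (grey) and their median (dashed, 0.04). Every interval crosses 0, those of Tlr3, Zbp1 and Trim25 are the widest, and the blue range crosses 0 for Dhx58, Zbp1 and Tbk1.

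Of the genes between the sensors and the kinases, the ubiquitin ligase gene Trim25 varied widely between libraries and the adaptor gene Mavs varied little. Trim25 (ENSMUSG00000000275), on chromosome 11 from 88999376 to 89020293 on the plus strand, encodes a ligase that attaches ubiquitin chains and acts with RIG-I. It was at 30.83, 21.49 and 29.84 FPKM in the Ifitm3 siRNA libraries, against 15.13, 10.55 and 31.51 FPKM in the control siRNA libraries. The first 2 control siRNA libraries lay below all others, whereas the third was the highest of the 6. The log2 fold change was 0.65 (standard error 0.39, 95% confidence interval -0.28 to 1.59, adjusted p = 0.659 from limma). Without control siRNA replicate 3 it was 1.09 and passed an unadjusted p of 0.05, with an adjusted p of 0.694 from limma. The lowest adjusted p of Trim25, and of any of the 10 genes under any alternative, was 0.414, with the replicate number as a block and the fold change at 0.65. Control siRNA replicate 3 thus decided whether Tlr3 and Trim25 passed an unadjusted p of 0.05, in opposite directions.

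Mavs (ENSMUSG00000037523), on chromosome 2 from 131234063 to 131248025 on the plus strand, encodes the mitochondrial adaptor on which RIG-I and MDA5 converge. It was at 28.44, 22.48 and 26.77 FPKM in the Ifitm3 siRNA libraries, against 23.05, 24.41 and 25.30 FPKM in the control siRNA libraries. The control siRNA libraries lay inside the range of the Ifitm3 siRNA libraries. The log2 fold change was 0.09 (95% confidence interval -0.22 to 0.40, adjusted p = 0.858 from limma), the narrowest interval of the 10 genes.

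Both kinase genes had lower levels than the cytosolic helicases. Tbk1 (ENSMUSG00000020115), on chromosome 10 from 121546455 to 121586787 on the minus strand, encodes the kinase that phosphorylates IRF3. It was at 8.76, 8.71 and 11.86 FPKM in the Ifitm3 siRNA libraries, against 10.87, 8.18 and 7.68 FPKM in the control siRNA libraries. The groups overlapped, with 1 high library in each. Its log2 fold change was 0.13 (95% confidence interval -0.33 to 0.59, adjusted p = 0.854 from limma).

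Ikbke (ENSMUSG00000042349), on chromosome 1 from 131254343 to 131279606 on the minus strand, encodes IKK-epsilon, the inducible relative of TBK1. It was at 1.11, 1.12 and 1.76 FPKM in the Ifitm3 siRNA libraries, against 1.03, 0.72 and 0.86 FPKM in the control siRNA libraries. All Ifitm3 siRNA libraries lay above all control siRNA libraries, though all values were low. The means were 1.33 ± 0.372 FPKM after Ifitm3 siRNA and 0.87 ± 0.155 FPKM after control siRNA (SD, n = 3 each), and the log2 fold change was 0.54 (95% confidence interval -0.09 to 1.17). The p was 0.0814, the smallest of the 10 genes, and the adjusted p was 0.605 from limma, with p = 0.1 from the exact permutation test. The predicted genes Gm28913 and Gm28914 lie on the other strand of this locus.

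The order of the levels was similar in both groups. After Ifitm3 siRNA it ran, from the highest mean FPKM to the lowest, Zbp1, Dhx58, Ddx58, Trim25, Adar, Mavs, Ifih1, Tbk1, Tlr3 and Ikbke, and after control siRNA it ran Zbp1, Dhx58, Ddx58, Adar, Mavs, Trim25, Ifih1, Tbk1, Tlr3 and Ikbke. Trim25 was the gene whose place differed. Most neighbours in these orders had overlapping ranges over their 3 libraries. The exceptions after Ifitm3 siRNA were Dhx58 above Ddx58, Ifih1 above Tbk1 and Tbk1 above Tlr3, and after control siRNA they were Adar above Mavs, Ifih1 above Tbk1 and Tlr3 above Ikbke. The mean of Ikbke in the control siRNA libraries was 0.87 FPKM and that of Zbp1 was 62.6 FPKM.

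**Figure D3:**
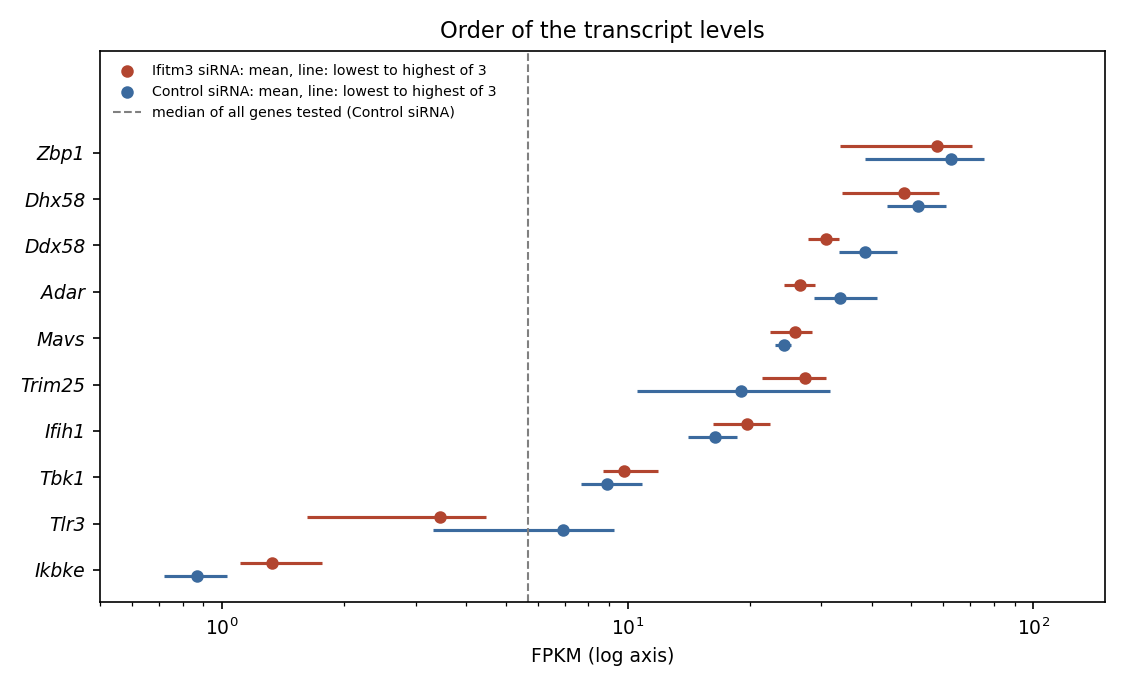
Mean FPKM of each gene (log axis) in the Ifitm3 siRNA libraries (red) and the control siRNA libraries (blue), with lines from the lowest to the highest of 3 libraries and the median control mean of all genes tested (dashed, 5.68 FPKM). Genes are in the order of their control means, with Zbp1 at 62.6 FPKM at the top and Ikbke at 0.87 FPKM at the bottom.

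These genes also differed between libraries of the same group. The median SD of log2 values within a group was 0.28 for the 10 genes, against 0.25 over all genes tested. Ifitm3 siRNA replicate 3 was the highest of its group for 8 of the 10 genes and control siRNA replicate 1 for 7, while control siRNA replicate 3 was the lowest of its group for 6. Ifitm3 siRNA replicate 1 was the lowest of all 6 libraries for 4 genes, Ddx58, Dhx58, Tlr3 and Zbp1, and the highest for Mavs. The shares over all genes tested were not computed, so these counts are no result about the 10 genes.

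Zbp1, Dhx58 and Tlr3 shared a pattern over the libraries. As a difference from the gene's mean on the log2 scale, Tlr3 was at -1.41, -0.07 and 0.00 in the Ifitm3 siRNA libraries and at 1.03, 0.87 and -0.42 in the control siRNA libraries. Zbp1 was at -0.78, 0.29 and 0.30 in the Ifitm3 siRNA libraries and at 0.36, 0.40 and -0.57 in the control siRNA libraries. Dhx58 was at -0.53, 0.07 and 0.26 in the Ifitm3 siRNA libraries and at 0.31, 0.06 and -0.17 in the control siRNA libraries. Each of these genes was thus lowest within its group in Ifitm3 siRNA replicate 1 and in control siRNA replicate 3. Trim25 went the other way among the control siRNA libraries, at 0.55 in replicate 3 and at -0.51 and -1.02 in the others. In the Ifitm3 siRNA libraries Trim25 was at 0.52, 0.00 and 0.47, so replicate 1 was highest but close to replicate 3.

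**Figure D4:**
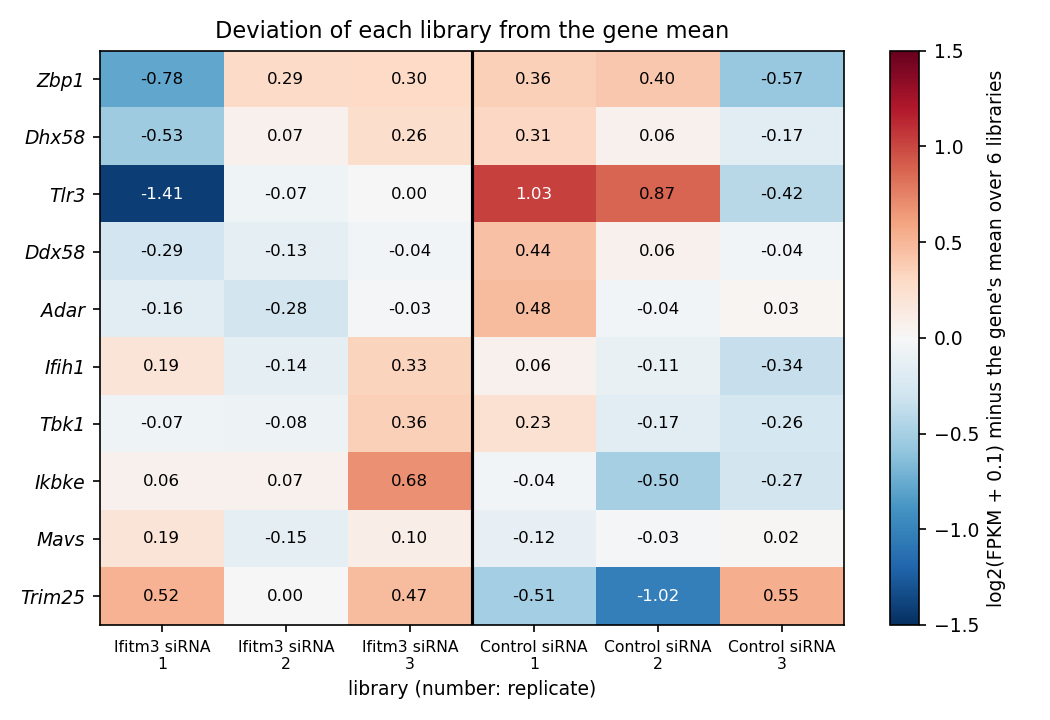
Difference of each library from the gene's mean over the 6 libraries on the log2(FPKM + 0.1) scale, for the 10 genes (lines) and the Ifitm3 siRNA libraries left of the control siRNA libraries (columns), with red above and blue below the mean. Zbp1, Dhx58 and Tlr3 are below their means in Ifitm3 siRNA replicate 1 and control siRNA replicate 3, where Trim25 is above its mean.

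As a description over the same 6 libraries, with the groups pooled and no test, Pearson's r was 0.91 between Zbp1 and Dhx58, 0.86 between Tlr3 and each of Zbp1, Dhx58 and Ddx58, and 0.91 between Ddx58 and Adar. It was 0.81 between Ifih1 and Tbk1 and -0.82 between Tlr3 and Trim25. These were picked from 45 pairs, and all pairs share their libraries. Across all genes, the deviations of Ifitm3 siRNA replicate 1 and control siRNA replicate 3 from their group means had an r of 0.359. What these libraries share was not tested.

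The other genes of the pathway were taken from 9 lists with 157 genes, of which 129 were tested. Without adjustment, 9 of them had a p under 0.05 and were higher after Ifitm3 siRNA than after control siRNA, and 10 were lower, beside 5.32% higher and 3.37% lower of all genes tested, and 0 passed an adjusted p of 0.05 (limma). These counts depended on single libraries, with 2 higher without control siRNA replicate 3 and 5 lower without control siRNA replicate 1. The median of all genes was 0.04 and 56.8% of all genes had a fold change above 0, and the medians of the lists are to be read beside these values.

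Of the cofactors and other RNA-binding sensors 17 were tested, with a median log2 fold change of 0.10, and without adjustment 1 passed as higher and 1 as lower. Ddx3x, an RNA helicase that works with MAVS, was higher at 0.32 (adjusted p = 0.565), and Ddx1, another helicase, was lower at -0.49 (adjusted p = 0.546, both from limma). Eif2ak2, which encodes PKR, the kinase that stops translation on double-stranded RNA, was at 19.21, 23.43 and 23.56 FPKM in the Ifitm3 siRNA libraries, against 30.16, 25.14 and 22.20 FPKM in the control siRNA libraries. The groups overlapped, and its log2 fold change was -0.22 (adjusted p = 0.712 from limma).

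The list of ubiquitin and phosphorylation control of RIG-I and MDA5 had 18 tested genes and a median of 0.11, with 3 that passed as higher without adjustment and 0 as lower. Riok3, which encodes a kinase that phosphorylates MDA5, was at 5.88 ± 1.38 FPKM after Ifitm3 siRNA and 3.16 ± 0.205 FPKM after control siRNA (SD, n = 3 each), a log2 fold change of 0.85 (adjusted p = 0.439 from limma). The others were Ube2d3, a ubiquitin-conjugating enzyme, at 0.34 and Usp3, a deubiquitinase, at 0.38. Rnf135, the ligase also called RIPLET that RIG-I needs, was at 0.41 without passing.

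In the MAVS and TRIF signaling complexes 27 genes were tested, with a median of 0.13, and without adjustment 2 passed as higher and 0 as lower. Optn, an adaptor of TBK1 also known from selective autophagy, was higher at 0.49 (adjusted p = 0.548), and the ubiquitin ligase gene Smurf1 at 0.37 (adjusted p = 0.570, both from limma). Irf3, the transcription factor that TBK1 activates, had a log2 fold change of 0.09, and Ticam1, the TLR3 adaptor TRIF, of 0.01.

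The list of ZBP1 and necroptosis had 6 tested genes, of which 1 passed an unadjusted p of 0.05. Mlkl, the executioner of necroptosis, was at 18.10, 13.13 and 17.40 FPKM in the Ifitm3 siRNA libraries, against 24.32, 19.41 and 21.77 FPKM in the control siRNA libraries. The groups did not overlap, and the log2 fold change was -0.44 (adjusted p = 0.551, limma). The other 5 genes had fold changes above 0, among them Ripk3, the kinase between ZBP1 and MLKL, at 0.17 and Ripk1 at 0.31. Of the endosomal Toll-like receptors and their trafficking, 7 of 11 genes were tested and 1 passed an unadjusted p of 0.05, the endolysosomal transporter gene Slc15a4 at 0.39 (adjusted p = 0.520, limma). Tlr7, Tlr8 and Tlr9, which bind single-stranded RNA or DNA in endosomes, did not pass 0.10 FPKM in any library.

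Among genes of cytosolic DNA sensing, which also converges on TBK1, 8 of 9 tested genes were below 0 with a median of -0.31. Of these, Rnaseh2b, a subunit of the RNase that removes RNA from DNA, was lower at -0.55 (adjusted p = 0.475) and the helicase gene Ddx41 at -0.32 (adjusted p = 0.573, both from limma). The median depended on single libraries and was -0.13 when Ifitm3 siRNA replicate 2 was left out and -0.19 when replicate 1 of that group was.

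The interferon genes that these sensors switch on were nearly silent at 48 h. Of 20 type I and III interferon genes 13 were listed at 0 FPKM in all libraries and 1 reached 1 FPKM in any. Ifnb1, the first interferon gene that IRF3 activates, was at 0.39, 1.87 and 0.36 FPKM in the Ifitm3 siRNA libraries, against 1.00, 0.81 and 0.23 FPKM in the control siRNA libraries. Its groups overlapped and its log2 fold change was 0.14 with an adjusted p of 0.963 (limma), turning to -0.54 without Ifitm3 siRNA replicate 2. Ifne, Ifnz, Ifnab, Ifna2, Ifna4 and Ifna13 were listed above 0 in at least 1 library, with no value above 0.29 FPKM.

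All 37 interferon-stimulated output genes reached 1 FPKM in at least 1 library. Their means ran from 3.92 FPKM for Ifi203 to 912 FPKM for Bst2 after Ifitm3 siRNA. After control siRNA they ran from 4.47 to 1044 FPKM for the same 2 genes. Of these 37 genes, 30 had fold changes below 0 and 7 above, with a median of -0.19, and without adjustment 6 passed as lower after Ifitm3 siRNA and 1 as higher. Oas1a, which makes the activator of RNase L on double-stranded RNA, was lower at -0.74, Ifit3 at -0.95 and Parp9 at -0.56, without passing after adjustment. In each of these genes every Ifitm3 siRNA library lay below every control siRNA library. Cxcl10, a chemokine gene that IRF3 also drives, was the one that was higher, at 144.6, 140.1 and 165.6 FPKM in the Ifitm3 siRNA libraries, against 134.9, 68.96 and 80.57 FPKM in the control siRNA libraries (log2 fold change 0.72, adjusted p = 0.533, limma). The groups did not overlap for Cxcl10 either. Of the 37 genes, the groups were apart as lower in 6 and as higher in 1, beside 15.6% of all genes tested in either direction. The median of the list was -0.06 without Ifitm3 siRNA replicate 1 and -0.05 without control siRNA replicate 1, and it was -0.38 without control siRNA replicate 3. Leaving out Ifitm3 siRNA replicate 2 gave -0.33 and leaving out replicate 3 of that group gave -0.31. Of the leukocyte markers, Cd68 was higher in each Ifitm3 siRNA library than in any control siRNA library. Tmem119 overlapped between the groups, and Ptprc, C1qa and C1qb were at or near 0 in both. Whether the Cd68 values bear on this list was not tested.

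**Figure D5:**
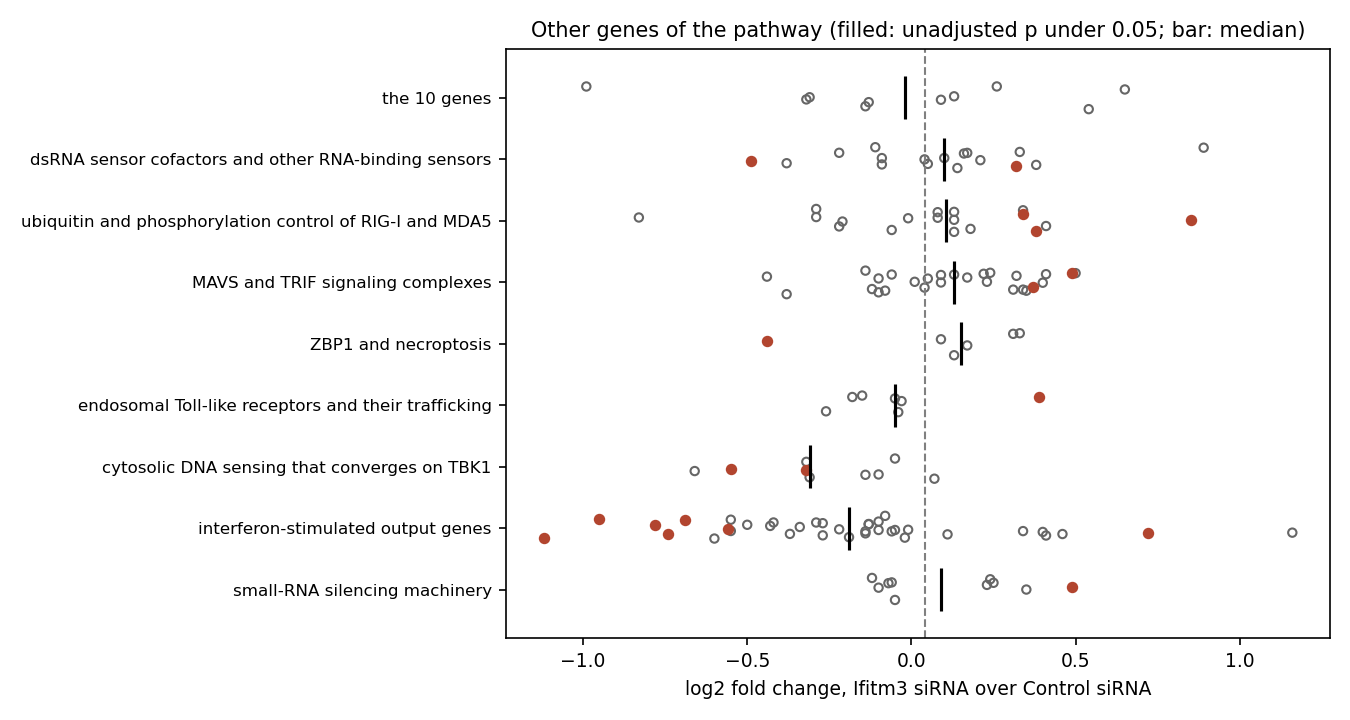
Log2 fold change, Ifitm3 siRNA over control siRNA, of each tested gene in the 10 genes and in 8 of the 9 lists of related genes, with filled points at an unadjusted p under 0.05, a bar at the median of each list and a dashed line at the median of all genes (0.04). The interferon list, with 1 tested gene, is left out, and the medians run between -0.31 for DNA sensing and 0.15 for ZBP1 and necroptosis.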

How the data were processed

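RNA of the mNRPCs was sequenced as poly(A)-selected libraries, 3 after Ifitm3 siRNA and 3 named Control, which are read here as after control siRNA. The authors deposited a table of FPKM with 2 decimals for each gene in each library. The tools cutadapt 1.9, HISAT2 2.0.4 and StringTie 1.3.4d stand in the submitters' processing notes, with hg18, a human build, although 99.5% of the identifiers are mouse identifiers of GENCODE vM21. The annotation and the use of strand are not given in the sources used here, and the unit was inferred from these tools and the range of the values. Depth is unknown, so no test on counts was run.

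From the FPKM, log2(FPKM + 0.1) was computed for 13588 genes, those averaging 0.5 FPKM or more across the 6 libraries. Fold changes are on that scale, which understates the change of low genes. A two-sided test came from limma 3.58.1 (R 4.3.3), with condition as the one term and moderation along the mean-variance trend, adjusted by Benjamini-Hochberg over these genes. The paper names thresholds but no test for these data. The fit was tested on simulated data. For a single gene an exact two-sided permutation test was run with SciPy 1.17.1 in Python 3.11.15.

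The members and lists were chosen with earlier results of these data known, so no test of a list was made. The genes named are the 10 genes, Ifitm3, the 4 tested genes of lowest p of each list (fewer where fewer were tested), interferon genes listed above 0 and, for each of the 10 genes, the 3 genes of at least 1 FPKM with the highest Pearson r. Eif2ak2, Irf3, Ticam1, Ripk3, Cxcl10, Ccl5, Bst2, Tlr7, Tlr8, Tlr9 and the markers named were chosen after their values were seen. Of identifiers sharing a symbol, that of the highest mean stands for it. Positions are those of GENCODE vM21 on GRCm38, promoters those of RefSeq on GRCm38.p6, and siRNA sequences come from the study's supplement. Same-numbered libraries were not treated as pairs. Some genes that this rule names are not reported here.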

Additional observations from a re-analysis of the deposited data

How the results depend on the processing

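Over 15 alternative settings 0 of the 10 genes passed an adjusted p of 0.05 (lowest 0.414) and 7 of them kept their direction. Leaving out single libraries gave -0.30 to 0.09 for Dhx58, -0.44 to 0.23 for Zbp1, -0.01 to 0.28 for Tbk1 and -0.54 to 0.51 for Ifnb1 on the log2 scale, so that these changed sign. The sign changed without Ifitm3 siRNA replicate 1 for Dhx58 (0.09) and Zbp1 (0.23), without control siRNA replicate 1 (0.03) or 2 (0.04) for Zbp1, without Ifitm3 siRNA replicate 3 for Tbk1 (-0.01), and without Ifitm3 siRNA replicate 2 (-0.54) or control siRNA replicate 3 (-0.39) for Ifnb1. With single libraries left out, 0 to 2 of the 10 genes passed an unadjusted p of 0.05, the 2 being Tlr3 and Trim25 without control siRNA replicate 3. Of the listed genes 2 to 10 were then higher and 5 to 14 lower, against 9 and 10 in all libraries, with 2 higher without control siRNA replicate 3, 4 higher and 5 lower without control siRNA replicate 1, 5 higher and 6 lower without Ifitm3 siRNA replicate 2 and 5 higher without Ifitm3 siRNA replicate 3. Of all genes 0 to 3 passed the adjusted threshold, against 1, and 115 to 221 were higher and 51 to 131 lower at the thresholds of the study, against 126 and 68. The adjusted count was 3 without control siRNA replicate 3 and 0 without control siRNA replicate 1 or 2 or Ifitm3 siRNA replicate 3, and 221 and 131 were counted without control siRNA replicate 2. The counts at these thresholds were 49 higher and 31 lower with a pseudocount of 1, and 278 higher and 135 lower with no filter on low values. With median-ratio scaling or quantile normalization 5 listed genes were higher. Without both replicate 2 libraries 0 genes passed the adjusted threshold, 122 were lower at the thresholds of the study and 5 listed genes were higher. The median of all genes lay between -0.01 and 0.05 in every setting. In a fit with a replicate block 0 genes passed the adjusted threshold and 0 of the 10 genes an unadjusted p of 0.05. The deviations of same-numbered libraries from their group means correlated at 0.07, 0.433 and 0.035 across genes, so they were not all above 0.1 and the libraries were not treated as pairs. The replicate 2 pair had the highest value of the 9 pairs across groups, and both its libraries lay apart on the first principal component (47.57 for Ifitm3 siRNA and 31.95 for control siRNA, the others between -33.12 and 0.15). Depth is unknown, and the low values of Ikbke, Tlr3 and Ifnb1 carry a counting error that cannot be given.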

Other observations

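The machinery that uses an siRNA was transcribed in both groups. Of 10 tested genes of small-RNA silencing 1 passed an unadjusted p of 0.05, and the median log2 fold change was 0.09. Ago2, which encodes the Argonaute that cuts a transcript paired with the siRNA, was at 8.37, 8.41 and 8.00 FPKM in the Ifitm3 siRNA libraries, against 5.59, 6.15 and 5.87 FPKM in the control siRNA libraries. The groups were apart by more than the spread within either, with a log2 fold change of 0.49 (standard error 0.11, adjusted p = 0.439 from limma). Tnrc6b and Tnrc6a, whose proteins bind Argonautes, were at 0.35 and 0.23, and Dgcr8, which acts in microRNA processing, at 0.25, and none of these 3 passed an unadjusted p of 0.05.

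Ccl5, a chemokine gene driven by interferon and NF-kB, spread widely, with 741.1, 186.4 and 518.4 FPKM in the Ifitm3 siRNA libraries, against 281.0, 107.9 and 212.1 FPKM in the control siRNA libraries. In each group the second library was the lowest. Its log2 fold change was 1.16 with an unadjusted p of 0.0835 and an adjusted p of 0.606 (limma).

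The genes whose pattern over the 6 libraries was most like a sensor differed between the sensors. Among 12173 genes compared by Pearson's r on log2 values, as a description, the nearest to Ddx58 were Irgm2 (0.995), Socs3 (0.993) and Rpn2 (0.987), and those nearest to Adar were Wdr5b (0.994), Isg15 (0.985) and Tfeb (0.982). The nearest to Dhx58 were Ifi203 (0.990), Usp40 (0.989) and Pros1 (0.988), and to Tlr3 they were Plekhh3 (0.996), Cdh24 (0.989) and Fuca1 (0.989). The nearest to Ifih1 were Clta (0.987), Cmtm3 (0.983) and Lrsam1 (0.981), and to Zbp1 they were Trmt1l (0.991), Tmem241 (0.990) and AC167036 (0.988). Each of the 10 genes had 11 to 44 genes with an r above 0.95, which 6 libraries allow for many pairs.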
